A study of Mus musculus with 6 samples.

Results

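Nuclear receptors and their main coregulators were followed in liver tumors and normal livers of C3H mice. The family comprised 46 of the 34741 genes on the array, 40 receptors and 6 coregulators, taken by gene symbol from a fixed list of names. It held the receptors for fatty acids (Ppara, Ppard, Pparg), retinoids (Rara, Rarb, Rarg, Rxra, Rxrb, Rxrg), thyroid hormone, vitamin D, oxysterols, foreign compounds and steroids, together with orphan receptors. The coregulators were Ppargc1a, Ppargc1b, Ncor1, Ncoa1, Ncoa2 and Ncoa3. The receptors of the core clock and of bile acids, and Hnf4a, were outside the list.

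A nuclear receptor is a transcription factor that binds DNA directly and whose activity is set by a small lipophilic ligand, or, in orphan receptors, by other means. Steroid receptors are held by chaperones until their hormone arrives, while many metabolic receptors sit on DNA as heterodimers with a retinoid X receptor and exchange corepressors such as Ncor1 for coactivators such as Ncoa1 when ligand binds. In liver these factors set fatty acid oxidation, gluconeogenesis, retinoid storage and the clearance of drugs and hormones.

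The samples were 3 normal livers and 3 macroscopic liver tumors, all 3 with a Ha-ras mutation. All came from male C3H/HeN mice, F2 offspring of the control group of a project on gestational arsenic exposure. The mice ate a standard diet and were 74 to 75 weeks old by the labels. C3H males develop liver tumors spontaneously, so no carcinogen was part of the groups used here. The total RNA of a sample was read as Cy3-labelled cRNA on a separate 1-color SurePrint G3 array. The sources do not say whether a normal liver and a tumor came from the same mouse, nor that the samples of a group are separate animals, so p-values measure the spread between these samples. Slide 1 held the normal livers and slide 2 the tumors, and an effect of the slide cannot be told apart from one of the tissue. The median local background was 42 to 45 signal units on slide 1 and 22 to 23 on slide 2.

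An expression value here is the processed signal of a probe divided by the 75th percentile of its array, which was 124 to 177 in signal units on the arrays of normal livers and 171 to 183 on those of tumors. Between 42.7% and 46.7% of spots were well above background on an array and 0 were saturated. A log2 fold change is the tumor mean minus the normal mean of log2 expression values, and a gene is called when limma's adjusted p over all tested probes is under 0.05. Values of different probes are not compared with each other, since probes differ in how brightly they bind. The small number of arrays limits the precision.

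Probe sequences show what the largest fall rests on. Nr1i3, the constitutive androstane receptor (CAR), is read by 2 probes at separate places of its transcript, from base 1070 to 1129 and from base 1202 to 1261, with no base in common.
Nr1i3 probe at 1202: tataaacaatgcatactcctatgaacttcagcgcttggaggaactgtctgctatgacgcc
Nr1i3 probe at 1070: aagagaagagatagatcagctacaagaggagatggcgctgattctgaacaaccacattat
Both probes gave a fall that was called, at log2 fold changes of -2.02 for the probe at 1070 and -2.35 for that at 1202, described with the receptor. The gene lies on chromosome 1 from 171213934 to 171218845 in the RefSeq annotation of GRCm38.p6.

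The 2 genes with the largest rises lie on chromosome 15, Nr4a1 from 101253902 to 101274795 and Rarg from 102234938 to 102257522. The 250 bases before a RefSeq start of each (GRCm38.p6) are shown to let their promoters be compared. For Nr4a1 the stretch is chr15:101266596-101266845 on the plus strand, inside the annotated gene and before one of its starts, and the capitals mark TGCGTCA, an element related to the site of AP-1.
Nr4a1: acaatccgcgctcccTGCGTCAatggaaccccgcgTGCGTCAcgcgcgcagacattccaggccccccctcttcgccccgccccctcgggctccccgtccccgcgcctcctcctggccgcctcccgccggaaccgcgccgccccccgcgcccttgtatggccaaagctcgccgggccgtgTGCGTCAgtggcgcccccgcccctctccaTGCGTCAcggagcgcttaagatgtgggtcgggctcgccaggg
For Rarg the stretch is chr15:102257523-102257772 on the minus strand, before the outermost start, and the capitals mark TGACCT, the reverse complement of the core nuclear receptor element AGGTCA.
Rarg: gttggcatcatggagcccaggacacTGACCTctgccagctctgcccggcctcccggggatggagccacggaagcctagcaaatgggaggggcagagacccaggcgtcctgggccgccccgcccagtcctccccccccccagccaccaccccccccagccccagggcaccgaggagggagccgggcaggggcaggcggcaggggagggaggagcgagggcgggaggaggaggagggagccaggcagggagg
Nr4a1 held 4 copies of TGCGTCA, a motif searched after its window had been read, and no other member held one in the windows matched. On either strand that motif occurred in 1.75% of all 32851 promoter windows of this length and in 1 of the 60 windows of 39 members. AGGTCA occurred in 14% of all windows and in 10 of the 60 member windows. Those were windows of Nr0b1, Nr1d2, Nr5a2, Nr6a1, Pparg, Rarg, Rxra, Rxrg and Thrb. Another Rarg window, chr15:102246501-102246750 before a start inside the gene, held no match. The longer AAAGGTCA, the Nr4a response element, overlaps AGGTCA and occurred in 1.34% of all windows and in the members Rxra and Rxrg. The cAMP response element TGACGTCA occurred in 1.55% of all windows and in 0 of the member windows. A match is a stretch of letters and not a measured binding site.

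Of the 46 members, 36 were well above background on all 6 arrays and 4 on none, as read by the brightest probe of each gene. The test covered the 38 members whose probe was well above background on every array of normal liver or on every array of tumor. Limma called 13 of these 38, or 34.2%, which equals the 34.2% called among all 18544 genes tested. The members were thus called as often as genes in general. Rarg, Nr4a1, Pparg and Rora rose in the tumors, against 13.1% of all genes called higher. Nr1i3, Esrrb, Rxra, Thrb, Nr5a1, Ncoa2, Nr2f2, Rxrb and Nr1h3 fell, against 21.0% of all genes called lower. With a change of 2-fold or more, 3 members rose (Rarg, Nr4a1, Pparg) and 2 fell (Nr1i3, Esrrb), and the shares of all genes were 7.78% and 6.83%. Pparg and Esrrb were under 2-fold with normexp background correction. The groups did not overlap in 18 of the 38 members, against 51.8% of all genes. The median log2 fold change was -0.23 over the members tested and -0.13 over all genes tested. How many called members were higher or lower depended on the scaling. With the 75th percentile 30.8% of the called members were higher (38.4% of all called genes), with quantile normalization 44.4% (47.6%), with normexp background correction 50% (41.2%), and with scaling by the spike-in controls 60.0% (64.3%). Spike-in scaling moved the median of all genes from -0.13 to 0.07, and only 2 members, Nr1i3 and Esrrb, were then called lower.

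**Figure D1:**
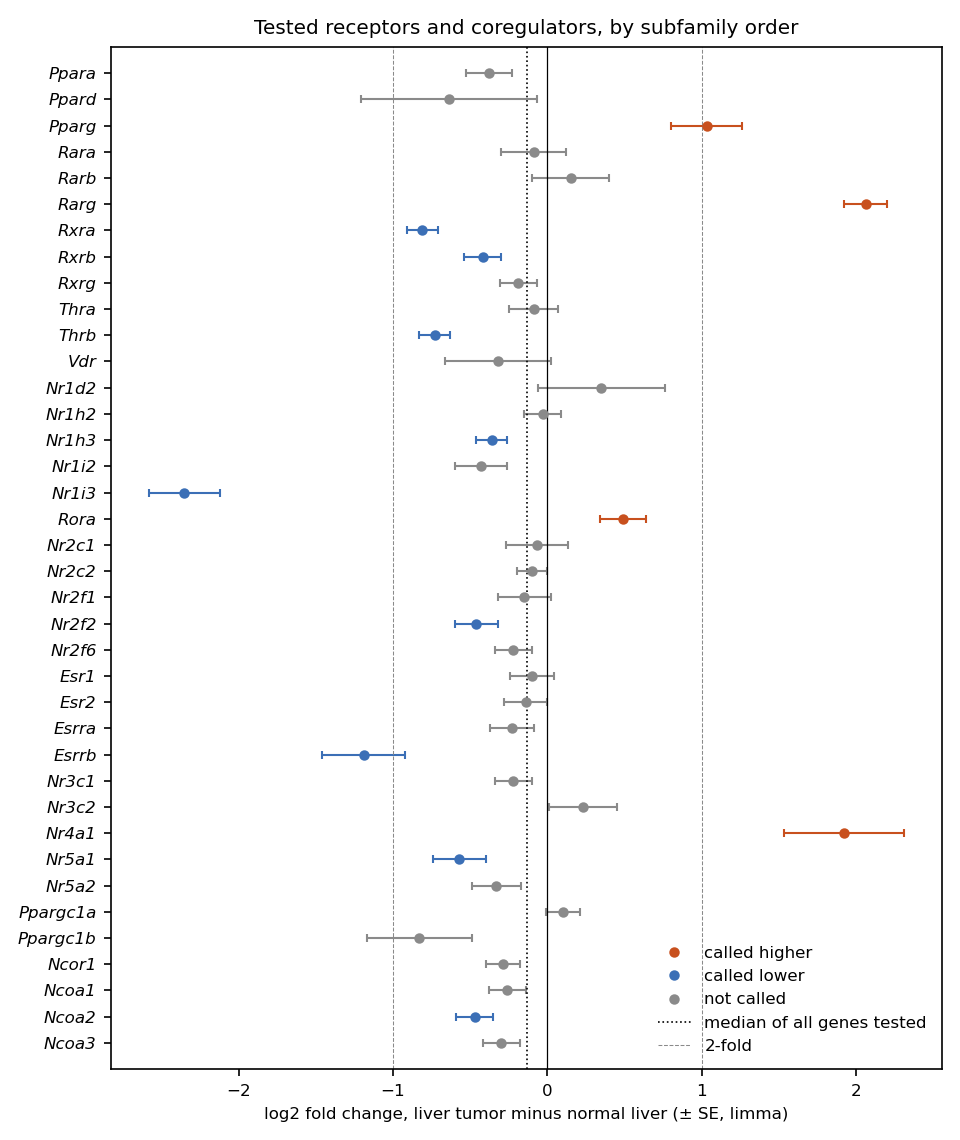
Log2 fold change of liver tumor against normal liver (horizontal axis, points, with the standard error from limma as bars) for the 38 tested members in subfamily order, 3 samples a group. Nr1i3, at -2.35, and Rarg, at 2.06, lie farthest from the dotted line, the median of all genes tested at -0.13.

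The tissue labels were set against marker genes of liver cell types. The 6 hepatocyte markers (Alb, Apob, Ttr, Trf, Ahsg, F2) gave 0 called genes by limma, 0 at an unadjusted p under 0.05, and 1 by the unpaired form of the methods' t-test after adjustment, with a median log2 fold change of -0.05. Their summed expression value was 7266 to 8107 in normal livers and 7369 to 7578 in tumors. Such a sum is set mostly by the brightest probes of its list and does not describe each marker. Of 8 markers of Kupffer cells and macrophages 6 fell, and the summed value went from 101 to 173 in normal livers to 51.4 to 84.7 in tumors. Of 8 markers of stellate cells and fibroblasts 5 fell and 2 rose (Reln, Col1a1), with summed values of 83.6 to 103 and 24.2 to 44.4. Most of that sum was Dcn, which alone read 75.8 to 96.4 and 17.8 to 37.7. Acta2 was higher in each tumor than in each normal liver but was not called (1.15, SE 0.38, limma's adjusted p = 0.0587). Of 7 endothelial markers 2 fell (Stab2, Clec4g), with summed values of 106 to 120.4 and 82.4 to 91.4. Of the 6 markers of cycling cells Mki67 (4.16, SE 0.26) and Cdk1 (2.14, SE 0.27) rose. Top2a, Ccnb1 and Bub1 were below background in all normal livers and were tested only through the tumors, where they were at least 4.28-, 14.9- and 1.87-fold higher, and Aurkb was well above background on 0 of the 6 arrays. The summed value of the 6 went from 0.480 to 0.588 in normal livers to 5.38 to 9.17 in tumors. The cholangiocyte, lymphocyte and neutrophil lists had 0 of 3 tested markers called each by limma (0, 1 and 1 at an unadjusted p under 0.05, 0 by the unpaired t-test after adjustment), with summed values of 1.45 to 1.90, 7.30 to 9.09 and 4.88 to 7.35 in normal livers and 1.10 to 1.32, 7.35 to 9.36 and 5.27 to 17.6 in tumors. The part of these cell types in the values of any member was not tested. In bulk tissue, fewer cells of a type and less RNA per cell cannot be told apart.

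Among the receptors of foreign compounds was the largest change of a tested member. Nr1i3 (CAR) senses drugs and other foreign compounds in hepatocytes and drives genes of their clearance. It read 26.5, 27.2 and 26.2 in the normal livers and 3.65, 6.94 and 5.66 in the tumors. The normal livers were nearly alike, the tumors spread over a wider range, and the groups lay far apart. This was a log2 fold change of -2.35 (SE 0.23, limma's adjusted p = 0.00131), a 5.09-fold fall, and without tumor 1, the lowest sample, it was -2.09. The second probe read 9.73, 9.91 and 9.95 against 1.91, 3.18 and 2.39, a log2 fold change of -2.02 (SE 0.19). Nr1i2, the pregnane X receptor (PXR), which shares many target genes with CAR, read 4.66, 4.06 and 6.08 in normal livers and 3.38, 3.54 and 3.96 in tumors. The groups of Nr1i2 did not overlap, but the difference of -0.43 (SE 0.17) did not pass the test (limma's adjusted p = 0.102).

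Of 12 target genes of CAR and PXR on the array, all tested, 4 fell and 2 rose, with a median log2 fold change of -0.34. Ces2a, a carboxylesterase, fell from 216, 236 and 269 to 41.0, 50.6 and 67.9, a log2 fold change of -2.20 (SE 0.20). Cyp2c55, a cytochrome P450, had a log2 fold change of -2.95 (SE 0.70), which was not called without normal liver 1, normal liver 2 or tumor 2 (limma's adjusted p = 0.0602, 0.0685 and 0.0503). Cyp2b9, another cytochrome P450, went the other way, from 0.202, 0.666 and 0.411 to 4.70, 5.34 and 3.59 (log2 fold change 3.56, SE 0.42). With normexp background correction Cyp2c55 was at -1.75 and Cyp2b9 at 2.49, both still called. Cyp2b10, the usual reporter of CAR activity and added here after its value was seen, read 10.3, 30.1 and 26.6 in normal livers and 51.0, 61.5 and 44.9 in tumors. Its log2 fold change was 1.37 (SE 0.41, limma's adjusted p = 0.0435). It was 0.88 and called without normal liver 1, and it was not called without normal liver 3, tumor 1, tumor 2 or tumor 3 (limma's adjusted p between 0.0615 and 0.115). The Cyp2b genes are similar in sequence, and a probe may bind the transcript of a relative.

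Of the 6 retinoid receptors Rarg rose, Rxra and Rxrb fell, and Rara, Rarb and Rxrg were not called. Rarg, the gamma form of the retinoic acid receptor, read 2.48, 2.09 and 1.90 in normal livers and 9.57, 8.95 and 8.41 in tumors. Each tumor was above each normal liver by a wide margin, and the log2 fold change was 2.06 (SE 0.14, limma's adjusted p = 2.98e-04), a 4.18-fold rise. A single probe represents the gene. Rara read 12.7, 8.67 and 9.10 against 11.6, 9.22 and 7.77, with overlapping groups and a log2 difference of -0.09 (SE 0.21). Rarb read 1.71, 1.64 and 1.10 against 1.36, 1.41 and 2.17, and its 2 tested probes differed in sign, at 0.15 (SE 0.25) and -0.09 (SE 0.30), neither called.

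Rxra, the main heterodimer partner of the metabolic receptors in liver, fell. It read 2.52, 2.49 and 2.53 in normal livers and 1.38, 1.45 and 1.47 in tumors, values that hardly varied within a group, with a log2 fold change of -0.81 (SE 0.10, limma's adjusted p = 0.00244). The second probe gave -0.40 (SE 0.10) and was called too. Rxrb went from 28.1, 26.9 and 33.3 to 21.8, 21.0 and 22.8, a log2 fold change of -0.42 (SE 0.12) that was not called when any 1 of the 6 arrays was left out (limma's adjusted p between 0.0663 and 0.115). Rxrg was not called by either of its 2 probes, which read -0.19 (SE 0.12) and -0.79 (SE 0.30). With spike-in scaling Rxra was at -0.62 and no longer called (limma's adjusted p = 0.0715).

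Among 7 tested genes that respond to retinoic acid, 3 fell and 1 rose, with a median log2 fold change of -0.69. Cyp26a1, the enzyme that degrades retinoic acid, read 20.6, 19.6 and 16.2 in normal livers and 0.222, 3.95 and 3.03 in tumors. Tumor 1 was far below the other tumors. The log2 fold change was -3.75 (SE 1.04), it was -2.43 and still called without tumor 1, and it was not called without normal liver 1, 2 or 3 (limma's adjusted p = 0.0919, 0.0918 and 0.0811). Lrat, which esterifies retinol for storage and also marks stellate cells, went from 0.684, 0.724 and 0.630 to 0.146, 0.260 and 0.181 (log2 fold change -1.83, SE 0.22, and -0.91 with normexp background correction). In all, 5 of the 8 stellate cell markers fell, Lrat among them, and 2 rose (Reln, Col1a1). The part of stellate cells in the value of Lrat was not tested. Aldh1a1, which makes retinoic acid from retinal, stood in the list of ligand supply and fell from 384, 545 and 374 to 29.1, 114 and 119. Its log2 fold change was -2.54 (SE 0.55), it was -1.87 without tumor 1, and it was not called without normal liver 2 (limma's adjusted p = 0.0546).

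**Figure D2:**
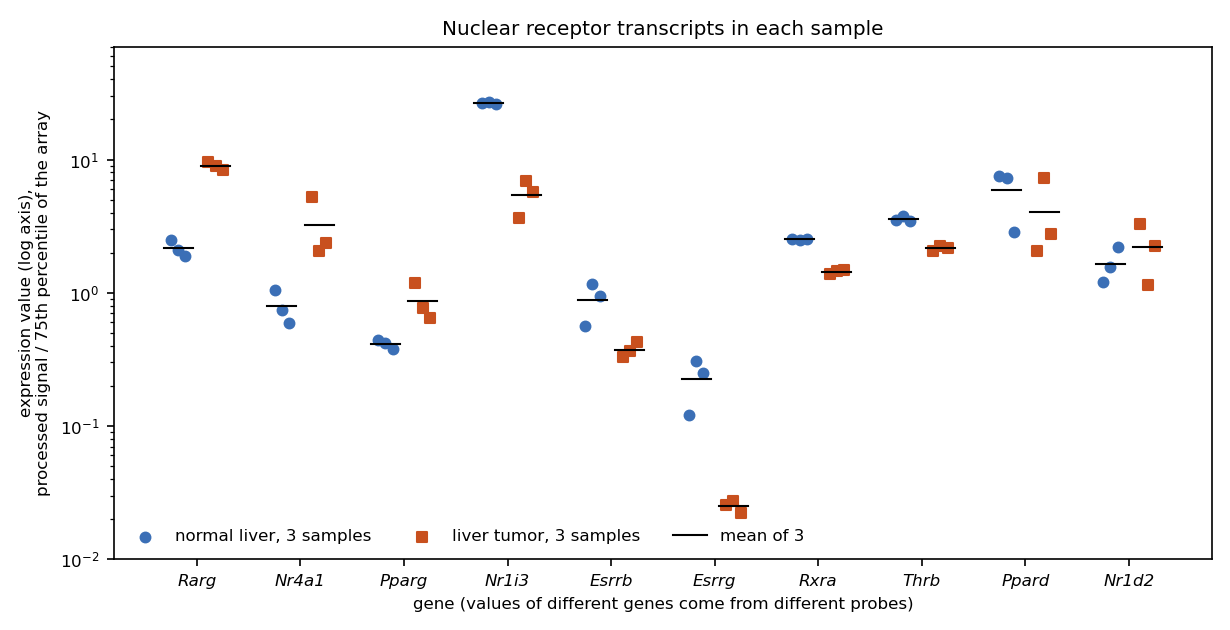
Expression value (vertical log axis, processed signal over the 75th percentile of the array) in each of 3 normal livers (circles) and 3 liver tumors (squares), with the mean of each group as a line, for 10 receptors. The groups of Rarg, Nr4a1, Pparg, Nr1i3, Esrrb, Esrrg, Rxra and Thrb do not overlap, and those of Ppard and Nr1d2 do.

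Of the 3 fatty acid receptors 1 was called. Pparg, which drives lipid storage and is the adipocyte form, rose from 0.439, 0.421 and 0.376 to 1.19, 0.765 and 0.642. Each tumor was above each normal liver, tumor 1 most. The log2 fold change was 1.03 (SE 0.23, limma's adjusted p = 0.0188), and it was 0.77 without tumor 1. It was not called without normal liver 2 or normal liver 3 (limma's adjusted p = 0.0559 and 0.0593). With normexp background correction it was 0.56 and still called. Ppara, the sensor of fatty acids that drives their oxidation in hepatocytes, read 62.8, 86.2 and 84.9 in normal livers and 60.8, 56.1 and 61.2 in tumors. The groups did not overlap, but the log2 fold change of -0.38 (SE 0.15) did not pass the test (limma's adjusted p = 0.103), except without normal liver 1, where it was -0.53 (limma's adjusted p = 0.0318). The 3 probes of Ppara lay between -0.43 and -0.32. Ppard, the widely expressed form, read 7.46, 7.26 and 2.85 in normal livers and 2.05, 7.23 and 2.75 in tumors. It was high in normal livers 1 and 2 and tumor 2 and low in the other samples, so that each group held both high and low values and its log2 difference of -0.64 (SE 0.57) was not called.

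Genes around the receptors were taken from 12 lists of targets, ligand supply, chaperones and other coregulators with 124 genes. Of the 113 tested, 16 rose and 40 fell, or 49.6% called, against 34.2% of all genes tested (13.1% higher and 21.0% lower). Their median log2 fold change was -0.30, against -0.13. These lists were chosen with earlier results of these data known, and their difference from all genes was not tested. Of 18 targets of Ppara 11 fell and 3 rose, with a median log2 fold change of -0.76. Acot1, an acyl-CoA thioesterase, read 8.19, 13.4 and 9.69 in normal livers and 0.609, 4.77 and 2.10 in tumors, a log2 fold change of -2.48 (SE 0.70). It was not called without tumor 3 or any 1 of the normal livers (limma's adjusted p between 0.0740 and 0.106), and it was -1.69 without tumor 1. Angptl4, an inhibitor of lipoprotein lipase, had a log2 fold change of -1.83 (SE 0.43) and was not called without normal liver 2, normal liver 3, tumor 1 or tumor 3 (limma's adjusted p between 0.0515 and 0.0625). Vnn1, a pantetheinase, was well above background in 0 of 3 normal livers. It read 3.93, 1.09 and 1.31 in tumors and was at least 14-fold higher there (adjusted p = 0.00319 by limma, from normal values below background). With normexp background correction the log2 fold change of Vnn1 was 2.11, under that bound. The count of falls in this list was 7 with spike-in scaling, 6 with no filter on dim probes, and between 6 and 11 with 1 array left out, the lowest without normal liver 2.

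Of 6 tested targets of Pparg limma called 4 higher and 0 lower, with a median log2 fold change of 1.74. At an unadjusted p under 0.05 limma had 5 higher and 0 lower, and the unpaired form of the methods' t-test called 0 after adjustment. Cidea and Cidec are lipid droplet proteins. Cidea was well above background in 0 of 3 normal livers. It read 24.8, 14.7 and 9.07 in the tumors and was at least 131-fold higher there (adjusted p = 1.93e-04 by limma, from normal values below background). Cidea was at 4.87 on the log2 scale with normexp background correction, under that bound. Cidec rose from 0.198, 0.161 and 0.282 to 6.78, 2.93 and 3.57 (log2 fold change 4.32, SE 0.35). With normexp background correction it was 2.76, and over the mean of its probes 3.58. Fabp4, a fatty acid carrier of adipocytes and macrophages, rose from 2.93, 2.89 and 2.31 to 11.9, 6.59 and 9.86 (log2 fold change 1.77, SE 0.24). In the same tumors 6 of the 8 macrophage markers fell. Adipoq, which defines adipocytes, was well above background on 0 of the 6 arrays. The part of these or other cell types in the value of Fabp4 was not tested. For a probe that was below background throughout a group, only a bound is given. It sets the mean of the bright group against the dimmest signal that still counted as well above background on each array, or the probe's own signal where that was higher. Cidea, Vnn1, Hr and S100g passed the filter on dim probes only through the tumors, where they had to be brighter, so their p is no support beyond the bound. With every probe tested and no filter, their adjusted p by limma was 9.97e-04, 0.0124, 0.0176 and 0.00635. Leaving such genes out, 2 targets of Ppara, 3 of Pparg and 12 of all listed genes were called higher.

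**Figure D3:**
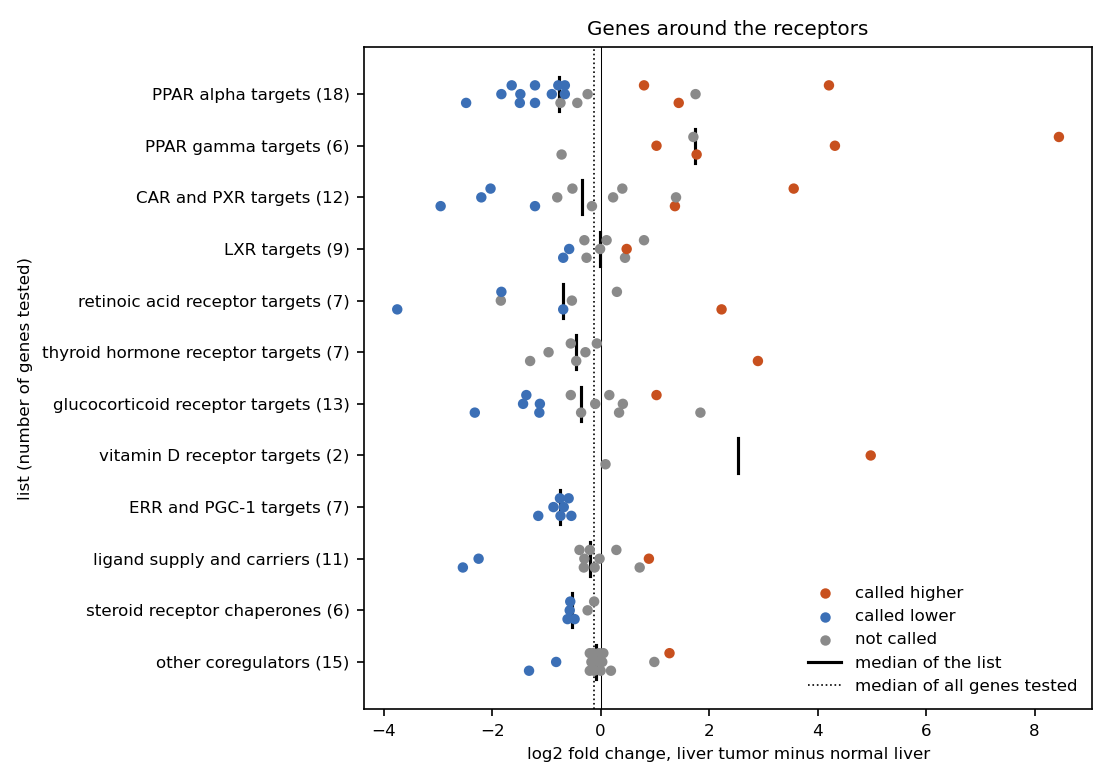
Log2 fold change of liver tumor against normal liver (horizontal axis) for each tested gene of 12 lists of receptor targets, ligand supply, chaperones and coregulators, with the list's median as a bar. The 7 targets of the estrogen-related receptors all lie below 0, and the points of Cidea, Vnn1, Hr and S100g, which were below background in normal livers, are fitted values and not bounds.

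Nr4a1 (Nur77) is an orphan receptor that is induced within minutes by growth factors and stress. It read 1.05, 0.748 and 0.593 in the normal livers and 5.19, 2.05 and 2.36 in the tumors. Tumor 1 was the highest sample and the groups did not overlap. The log2 fold change was 1.92 (SE 0.39, limma's adjusted p = 0.0127), and 1.51 without tumor 1, where it was still called (limma's adjusted p = 0.0109). Its relatives Nr4a2 and Nr4a3 had no such signal. Nr4a2 was well above background in 1 of 3 normal livers and in 0 of 3 tumors, and Nr4a3 on 0 of the 6 arrays.

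The estrogen-related receptors, orphan receptors that work with the coactivators Ppargc1a and Ppargc1b on mitochondrial genes, were lower or did not pass the test. Esrrb read 0.558, 1.16 and 0.942 in normal livers and 0.331, 0.364 and 0.423 in tumors, without overlap. Its log2 fold change was -1.19 (SE 0.27, limma's adjusted p = 0.0192). It was not called without normal liver 2, normal liver 3, tumor 1 or tumor 2 (limma's adjusted p between 0.0516 and 0.0608). With normexp background correction it was -0.75 and still called. Esrrg was well above background in 2 of 3 normal livers, at 0.121, 0.307 and 0.249, and in none of the tumors, at 0.0254, 0.0273 and 0.0223. It was therefore not tested, and its normal livers were at least 2.05-fold higher than the tumors. Esrra, which is widely expressed, read 15.5, 16.2 and 17.9 against 16.2, 14.2 and 12.0, a log2 difference of -0.23 (SE 0.14) that was not called.

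All 7 genes of oxidative metabolism that these receptors control with PGC-1 fell, with a median log2 fold change of -0.74. They were Idh3a (-1.15, SE 0.19), Sdhb (-0.87, SE 0.14), Cycs (-0.75, SE 0.17) and another 4 between -0.74 and -0.54. With spike-in scaling only 1 of the 7, Idh3a, was called, and with no filter on dim probes 4 were. Without normal liver 2 or normal liver 3 the count was 6, and Cycs was not called. The coactivators of these genes were not called. Ppargc1a read 2.12, 2.02 and 1.78 in normal livers and 2.13, 2.12 and 2.06 in tumors. Ppargc1b read 0.300, 0.206 and 0.346 against 0.211, 0.0971 and 0.187, was well above background in 2 of 3 tumors, and had a log2 difference of -0.83 (SE 0.34, limma's adjusted p = 0.106).

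Of the thyroid hormone receptors, Thrb, the main form of liver, fell from 3.49, 3.77 and 3.47 to 2.04, 2.23 and 2.18. Within each group the samples were close together. The log2 fold change was -0.73 (SE 0.10, limma's adjusted p = 0.00410), the second probe gave -0.81 (SE 0.12), and with spike-in scaling it was -0.54 and not called (limma's adjusted p = 0.130). Thra read 9.76, 9.06 and 6.96 against 7.39, 8.75 and 7.85, and its probes, at -0.09 and 0.03, were not called. Of 7 thyroid hormone responsive genes limma called 1 higher and 0 lower, with a median log2 fold change of -0.45, and 2 were lower at an unadjusted p under 0.05. The call was Hr, a corepressor, at least 3.25-fold higher than in normal livers that were all below background (adjusted p = 0.00461 by limma). Hr too entered the test only through the tumors, and without it 0 of these genes were called. With normexp background correction the log2 fold change of Hr was 0.74, under that bound.

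The oxysterol receptors sense cholesterol derivatives. Nr1h3 (LXR alpha), which is expressed in hepatocytes and macrophages, read 48.9, 55.4 and 51.9 in normal livers and 39.9, 41.6 and 40.4 in tumors. The log2 fold change was -0.36 (SE 0.10, limma's adjusted p = 0.0412), with -0.42 (SE 0.11) from its second probe, and it was not called when any 1 of the 6 arrays was left out (limma's adjusted p between 0.0590 and 0.137). The 6 falling macrophage markers stood beside it, and their part in it was not tested. Nr1h2 (LXR beta) read 21.6, 23.0 and 21.7 against 23.1, 22.9 and 19.0, with overlapping groups. Of 9 LXR targets Abca1 rose (0.48, SE 0.12), Mylip (-0.69, SE 0.15) and Srebf1 (-0.58, SE 0.15) fell, and the median was -0.01. None of these 3 kept its call with every array left out in turn, and the number of falls was 0 without normal liver 2 or tumor 2.

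None of the steroid receptors was called, and limma's unadjusted p of the 4 tested lay between 0.115 and 0.512. Nr3c1, the glucocorticoid receptor, read 28.4, 31.1 and 26.0 in normal livers and 24.6, 22.5 and 26.2 in tumors, a log2 difference of -0.22 (SE 0.12). Esr1, the estrogen receptor of liver, read 0.918, 1.24 and 1.11 against 0.992, 1.02 and 1.03. Esr2 (-0.14, SE 0.14) and Nr3c2, the mineralocorticoid receptor (0.23, SE 0.22), were not called either, and Pgr, the progesterone receptor, was well above background on 0 of the 6 arrays. Of 13 genes that glucocorticoids control in liver, 5 fell and 1 rose, with a median log2 fold change of -0.36. G6pc (-2.32, SE 0.39) and Pck1 (-1.37, SE 0.27), enzymes of gluconeogenesis, and Tat (-1.43, SE 0.19), which degrades tyrosine, fell most. G6pc went from 106, 213 and 112 to 18.7, 44.0 and 24.4. Of 6 chaperones of steroid receptors 4 fell, with a median of -0.52, among them Fkbp4 (-0.61, SE 0.15), Hsp90aa1 (-0.57, SE 0.15) and Ptges3 (-0.56, SE 0.11). The chaperone count was 0 with spike-in scaling or with no filter on dim probes, 2 with quantile normalization, and 1 or 2 with any 1 array left out.

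In the list of ligand supply 2 of 11 tested genes fell and 1 rose, with a median of -0.20. Aldh1a1 was one of the falls. Srd5a1, which reduces testosterone and other steroids, read 40.8, 42.0 and 45.4 in normal livers and 3.68, 13.6 and 14.5 in tumors. Its log2 fold change was -2.25 (SE 0.51), -1.61 without tumor 1, and it was not called without normal liver 1, 2 or 3 (limma's adjusted p = 0.0535, 0.0564 and 0.0564). Serpina6, the carrier of corticosteroids in plasma, rose by 0.89 (SE 0.25), a call that held only without tumor 3 among the settings that left out 1 array.

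Vdr, the vitamin D receptor, was close to background, at 0.205, 0.192 and 0.204 in normal livers and 0.282, 0.110 and 0.135 in tumors. It was well above background in 2 of 3 tumors, and tumor 1 was the highest and tumor 2 the lowest sample. The log2 difference was -0.32 (SE 0.34, not called), but without tumor 1 it was -0.72 and was called (limma's adjusted p = 0.0171). Of its 4 listed targets 2 were tested. S100g, a calcium-binding protein, was below background in all normal livers and at least 16.9-fold higher in tumor tissue (adjusted p = 0.00151 by limma). It entered the test only through the tumors, and with normexp background correction its log2 fold change was 2.20, under that bound. Trpv6, a calcium channel, was not called.

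Of the remaining orphan receptors that were tested, Rora, Nr2f2 and Nr5a1 were called, each with a change under 2-fold. Rora rose from 7.05, 7.65 and 5.95 to 9.03, 11.2 and 8.81 (log2 fold change 0.49, SE 0.15, limma's adjusted p = 0.0492). Nr2f2 (COUP-TFII), which is prominent in endothelial and stromal cells, fell from 4.32, 5.15 and 4.82 to 3.92, 3.39 and 3.09 (-0.46, SE 0.14, limma's adjusted p = 0.0419). Of the 7 endothelial markers 2 fell, with a median log2 fold change of -0.01, and of the 8 stellate cell markers 5 fell and 2 rose. The part of these cells in the value of Nr2f2 was not tested. Nr5a1 (SF-1), known from steroid-making glands, read 2.24, 2.49 and 3.25 against 1.60, 1.97 and 1.76 on a single probe (-0.57, SE 0.17, limma's adjusted p = 0.0454). Without any 1 array Rora was not called (limma's adjusted p between 0.0646 and 0.136). Nr2f2 was called only without tumor 1 and Nr5a1 only without normal liver 1 (limma's adjusted p = 0.0348 and 0.0447), and otherwise they lay between 0.0560 and 0.131. Nr2c1, Nr2c2, Nr2f1, Nr2f6 and Nr5a2 had log2 differences from -0.33 to -0.07 and were not called.

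Nr1d2, a repressor of the clock's outer loop, read 1.20, 1.56 and 2.19 in normal livers and 3.26, 1.14 and 2.26 in tumors. Its groups overlapped and its log2 difference was 0.35 (SE 0.41). The 3 samples in which Nr1d2 was lowest, normal livers 1 and 2 and tumor 2, were those in which Ppard was highest. Over 6 samples this is a description only.

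Among the coregulators 1 of 6 was called. Ncoa2, a coactivator of steroid and other receptors, fell from 6.01, 6.43 and 6.31 to 3.96, 4.92 and 4.67 (log2 fold change -0.47, SE 0.12, limma's adjusted p = 0.0278), and was called only without tumor 2 among the settings that left out 1 array (limma's adjusted p = 0.0436, otherwise between 0.0512 and 0.0912). The groups of Ncoa1, Ncoa3 and Ncor1 did not overlap either, at log2 differences of -0.26 (SE 0.12), -0.30 (SE 0.12) and -0.29 (SE 0.11), none called. Ncor1, a corepressor, has 4 tested probes that contradicted each other. The second by signal fell by 0.54 on the log2 scale (SE 0.14) and the fourth rose by 0.51 (SE 0.16), both called, so that no single direction can be given for the gene. Of the 3 probes of Ncoa1 1 was called, at -0.34 (SE 0.10). Of 15 other coregulators tested 2 fell and 1 rose, with a median log2 fold change of -0.08. Med1, a Mediator subunit that receptors bind, fell from 32.2, 26.5 and 24.6 to 9.83, 11.7 and 11.6 (-1.32, SE 0.15). Its other 3 probes gave -0.44 (SE 0.14, called), -0.09 (SE 0.15) and -0.32 (SE 0.15), neither of the last pair called, and the mean of its probes was -0.54 and called. Nrip1, a corepressor, fell by 0.82 (SE 0.13), and Crebbp, a histone acetyltransferase, rose from 11.0, 11.7 and 15.3 to 38.2, 27.5 and 26.5 (1.27, SE 0.20), with 0.45 (SE 0.15, not called) from its second probe.

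**Figure D4:**
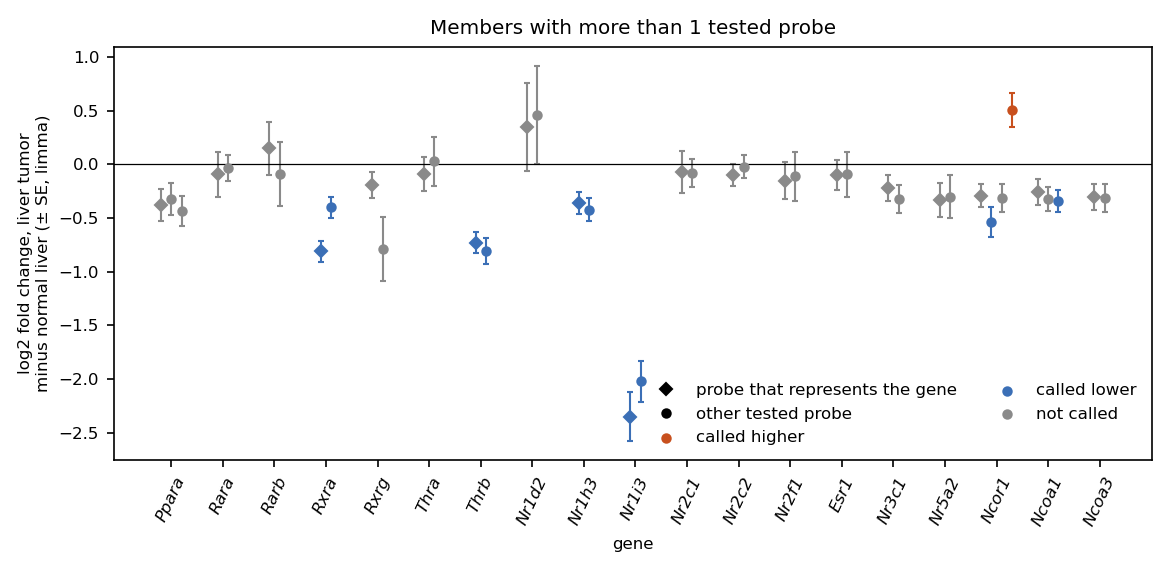
Log2 fold change of liver tumor against normal liver (vertical axis, with the standard error from limma) for every tested probe of the 19 members with more than 1 tested probe, diamonds marking the probe that represents the gene. In 16 of the 19 all probes have the same sign, and Ncor1 has called probes on both sides of 0.

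Probes of one gene gave a check on these values that the choice of probe did not use. Of the 19 members with more than 1 tested probe, the sign was shared by all probes in 16 and both sign and call in 15. The called members with a second tested probe were Nr1i3, Rxra, Thrb and Nr1h3, and in each the second probe was called in the same direction. Rarg, Nr4a1, Pparg, Rora, Esrrb, Rxrb, Nr2f2, Nr5a1 and Ncoa2 rest on 1 tested probe each. Rora and Esrrb each have a second probe that was too dim to be tested, so these probes gave no check on their values.

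**Figure D5:**
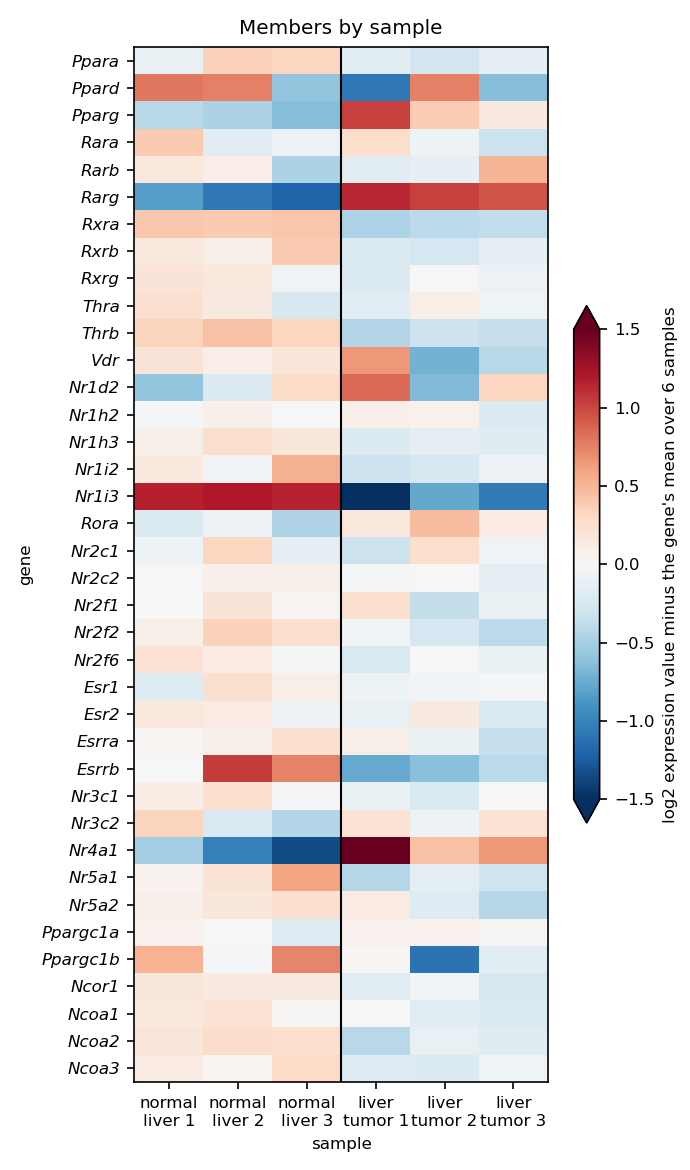
Log2 expression value minus the gene's mean over the 6 samples (colour, red above and blue below, with darker shades saturating at 1.5) for the 38 tested members (vertical axis) in each sample (horizontal axis). Rarg and Nr4a1 are blue in the 3 normal livers and red in the 3 tumors, Nr1i3 is the reverse, and Ppard and Nr1d2 change between samples of 1 group.

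By the methods, a gene was used when its mean was above 1.0 in either group and was judged changed when its group means differed 2-fold or more. Among the 32 members above that threshold, 3 differed so, Nr1i3, Rarg and Nr4a1, against 15.5% of all genes above it. The methods give p under 0.05 in a paired t-test as their limit for gene expression in general, and it was added here as a further condition. The pairs could not be established, so the unpaired form was used. Nr1i3 and Rarg met all of these conditions, against 14.1% of all genes, and they met them after Benjamini-Hochberg adjustment and in the paired form without adjustment as well. Nr4a1 missed the condition on p with all samples and met it without tumor 1. Without the threshold on the mean, Esrrb and Esrrg met the other conditions too. In a two-sided exact permutation test over the samples each called member had p = 0.1, and with 3 samples a group no smaller value can be reached.

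The 8 members not tested were Rorb, Hnf4g, Esrrg, Pgr, Nr4a2, Nr4a3, Nr6a1 and Nr0b1. Hnf4g, Pgr, Nr4a3 and Nr0b1 were well above background on 0 of the 6 arrays. Rorb was so in 1 normal liver and 1 tumor, and Nr6a1 in 2 of each. For these genes no difference between the groups could be tested at this signal.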

How the data were processed

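Gene expression was measured on 1-color Agilent arrays in 3 normal livers and 3 liver tumors, grouped by their titles. The authors deposited, per array, the intensity of each spot after background subtraction and spatial detrending (processed signal, a surrogate value where a spot did not exceed background), with the mean signal and the local background. The version of Feature Extraction is 12.0.3.1 in the submitters' processing notes and 10.7.3.1 in the file headers, and the methods name an earlier one. The authors also deposited a ratio of the processed signal to the 75th percentile of the array, and a comparison with the intensities showed that controls had entered that percentile.

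From the deposited intensities, log2 values minus log2 of the same percentile were computed. Control and outlier spots were left out (0 member values), spots of a probe were averaged, and 24901 of 55681 probes passed the filter on background. Groups were compared with limma 3.58.1 in R 4.3.3 (lmFit, eBayes, two-sided, Benjamini-Hochberg, threshold 0.05, all tested probes), checked on simulated data. The brightest probe stands for a gene, and 80 probes belong to members, 61 of them tested. Tables were made in Python 3.11.15 (numpy 2.4.6, pandas 2.3.3, scipy 1.17.1) and figures with matplotlib 3.10.9. Names, positions and promoter windows are from RefSeq (GRCm38.p6), and probe sequences from the deposited files. Members, lists, rules and tests were chosen with earlier results of these data known. Members that were called and whose groups do not overlap are described by sample, and of each list at most 3 called genes with the largest change are named, besides Cyp2b10. A called gene that this rule would name is counted with its list only, and its own values are not reported here. Genes named as not called were chosen for their place in a subfamily or list. Ugt1a1 had no probe of that name. The closing section gives the alternatives.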

Additional observations from a re-analysis of the deposited data

How the results depend on the processing

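Rarg, Nr4a1 and Nr1i3 kept direction and call in all 16 alternatives fitted with limma, Rxra and Thrb in all but spike-in scaling. Pparg was not called with no filter on dim probes or without normal liver 2 or 3, and Esrrb with no filter or without normal liver 2, normal liver 3, tumor 1 or tumor 2. Rora, Rxrb, Nr1h3, Nr2f2, Nr5a1 and Ncoa2 lost the call in 8 to 11. The cause was not tested, other than that no filter adds dim probes to the adjustment and leaving out a sample lowers its number.

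Against 4 members higher and 9 lower, quantile normalization gave 5 lower, spike-in scaling 2, normexp 4, and no filter 4 lower and 2 higher. The unpaired form of the methods' t-test with Benjamini-Hochberg adjustment gave 1 higher. Against 3 members higher and 2 lower by 2-fold or more, spike-in scaling and normexp gave 1 lower, and the adjusted t-test 1 higher and 1 lower. With 1 array left out, 2 to 3 members were higher and 3 to 6 lower (by 2-fold or more, 2 to 3 and 1 to 2). The lowest count of falls came without normal liver 2 or normal liver 3. Against 16 pathway genes higher and 40 lower, spike-in scaling gave 23 lower, no filter 10 higher and 22 lower, and leaving out 1 array 10 to 14 higher and 26 to 37 lower. Of the pathway genes named, Acot1, Angptl4, Cyp26a1, Cyp2b10, Cyp2c55, Srd5a1 and Serpina6 were not called with no filter, Sdhb and Nrip1 not with spike-in scaling, and Abca1, Mylip, Srebf1, Cycs, Fkbp4, Hsp90aa1 and Ptges3 with neither. The methods' criteria were met by 4 members without the expression threshold, and by 2 to 3 with 1 array left out. By the 2-fold change alone, added after seeing the data, they were met by 3.

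The log2 differences that changed sign were all of members that were not called in either setting. With quantile normalization Rara was at 0.02, Thra 0.01, Nr1h2 0.12 and Nr2f6 0.00. With spike-in scaling Rara, Thra, Nr2c2 and Esr1 were at 0.10, Nr1h2 0.16, Nr2c1 0.12, Esr2 0.06, Nr2f1 0.05 and Rxrg 0.00, and with normexp Nr1h2 was at 0.09 and Nr2c1 at 0.04. With 1 array left out, Rara ranged from -0.24 to 0.08, Rarb from -0.07 to 0.27, Thra from -0.24 to 0.01, Nr1h2 from -0.08 to 0.06, Nr2c1 from -0.22 to 0.07 and Esr1 from -0.22 to 0.00.

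The samples share replicate numbers, and deviations from the group means correlated at 0.0687, 0.132 and 0.0506 in the pairs 1, 2 and 3. Tumors 1 and 2 correlated best with the normal liver of the same number, and tumor 3 with normal liver 2 (0.0550). Such small values cannot decide whether the numbers mark pairs. With the replicate block 4 members were higher and 6 lower, and Ppargc1b gained a call (limma's adjusted p = 0.0250). The methods' t-test is paired, and this form, added after seeing the data, called 0 members higher or lower after adjustment (0 by 2-fold or more, and 0 of all genes), with 2 higher and 9 lower at an unadjusted p under 0.05. A fit with the slide as a block was not run, since each slide holds 1 group. Probes near background limit Vdr, Ppargc1b, Pparg, Esrrb and Esrrg.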
